A study of Mus musculus with 6 samples.

Results

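Laminins are large three-stranded proteins of the basement membrane, the sheet of matrix that surrounds each adipocyte and each blood vessel, and every laminin holds one alpha, one beta and one gamma chain. Integrins are cell surface receptors made of an alpha and a beta chain that bind laminins, collagens, fibronectin or, on leukocytes, proteins of other cells, and connect them to the actin cytoskeleton. In adipose tissue, adipocytes, vessel cells, fibroblasts and leukocytes all carry integrins, and adipocytes also deposit laminin.

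The genes of both families were followed in interscapular brown adipose tissue, which releases energy as heat, and epididymal white adipose tissue, which stores fat. Both came from untreated male C57BL/6 mice kept at ambient temperature, aged 10 to 12 weeks, with 3 Affymetrix mouse 430_2 arrays of each tissue. The series design gives 3 mice as the source of both tissues, but the labels do not say which samples share a mouse, so the arrays were compared as separate samples. Fat type and body site change together here and cannot be told apart. In whole tissue, fewer cells of a type and less RNA per cell cannot be told apart either.

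Members were the probe sets, each a group of short probes reading one transcript, whose single platform gene symbol was a laminin chain or began with Itga or Itgb plus a chain number or letter. They numbered 84 of 45037 probe sets and stood for 39 of the 18193 genes with a single symbol, made up of 10 laminin chains, 24 integrin chains and 5 genes matched by symbol that are not counted as chains (Itgb1bp1, Itgb1bp2, Itgb2l, Itgb3bp and Itgbl1). Values are signals, in arbitrary linear units, after quantile normalisation of the 6 arrays, and differences are log2 brown minus white. A gene is represented by its brightest tested probe set and was called where limma's adjusted p over all 19819 probe sets tested was below 0.05. Tested probe sets were those reported present (detected above mismatch background) on at least 3 of the 6 arrays. Signals of different probe sets are not comparable with each other.

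The tissue labels were checked first. Ucp1, the heat-producing uncoupling protein, had 13251, 12788 and 12788 signal units on the brown arrays and 62.5, 4.58 and 11.2 on the white arrays, where it was reported absent. Leptin (Lep), the white fat hormone, had 67.2, 32.1 and 63.2 on the brown arrays and 1762, 1731 and 1735 on the white arrays. A table of the whole series that the authors also deposited carries the tissues the other way round: its columns correlated at 0.892 to 0.932 with the array files of the opposite tissue and at 0.761 to 0.786 with those of the same label. Directions below therefore rest on the array files, whose labels fit these marker genes. Reported-present probe sets made up 35.6% to 37.5% of each brown array and 45.2% to 45.8% of each white array. The actin 3'/5' signal ratio, which grows as RNA degrades, was 1.36 to 2.24 in brown, highest on brown replicate 2, and 1.19 to 1.73 in white.

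Most laminin and integrin genes that could be tested were higher in white fat. Among the 34 members' probe sets that were tested, brown was higher in 2 and white in 24 (26 called), where 24.6% of all tested probe sets were higher in brown, 29.9% were higher in white and 54.5% were called in all. Brown and white arrays were fully separated in 26 of these 34, against 62.4% of all tested probe sets. By gene, 25 of 39 were tested, 2 of them (Itga1 and Itgae) were higher in brown, 16 were higher in white and 7 were not called. Over all 10264 genes tested the shares were 27.7% higher in brown, 32.2% higher in white and 60.0% called. Arrays did not overlap in 18 of the 25, against 67.3% of all genes tested. The median difference was -0.79 over the 25 member genes and -0.04 over all genes tested. Of the tested member genes, 8 were present on all 3 white arrays but not on every brown array. The reverse held for 2, and neither count was made over all genes. Members present on all white arrays and on no brown array numbered 4 of 39, and the reverse held for 1. Over all 18193 genes these counts were 992 and 113. Genes detected in a single tissue pass the filter through that tissue, so their direction is not independent of it. Among the 15 member genes present on all 6 arrays, 1 was higher in brown and 10 in white, where of all 7292 such genes 32.9% were higher in brown, 30.9% were higher in white and 63.8% were called. With no filter, brown was higher in 3 of the 84 and white in 25, against 12.8% and 14.1% of all probe sets, of which 27.0% were called.

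**Figure D1:**
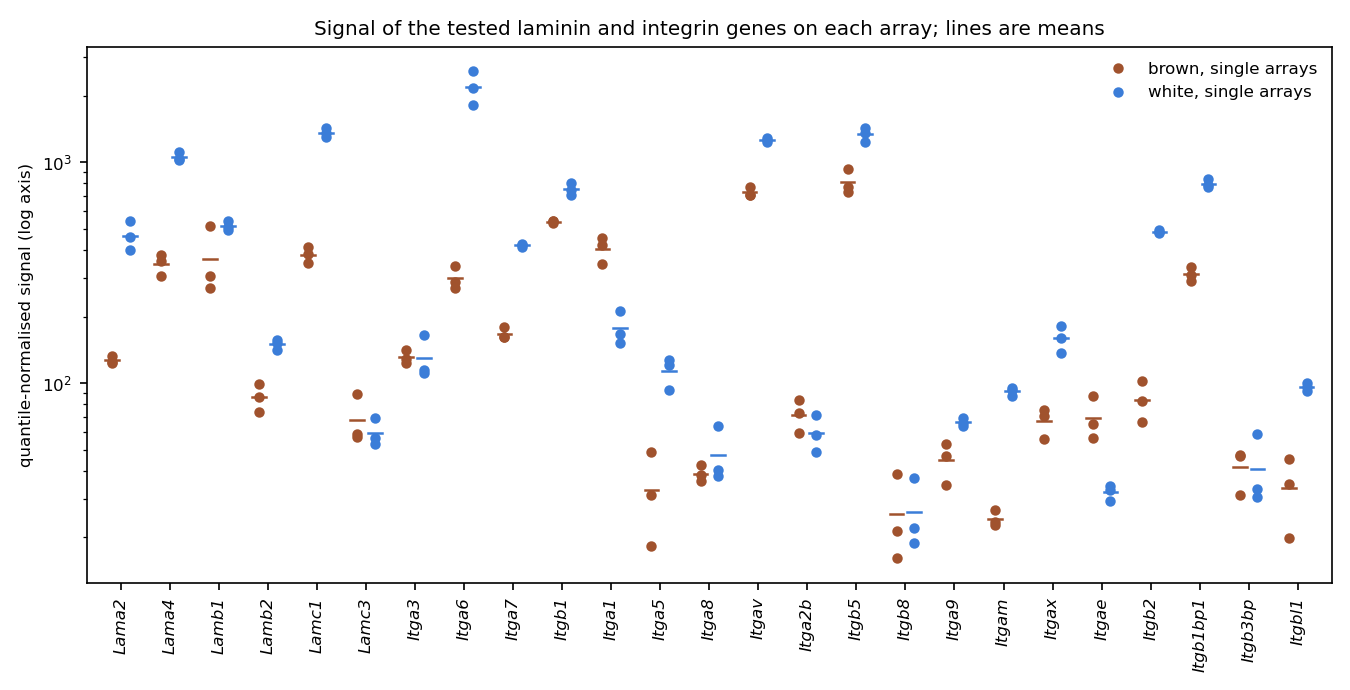
Quantile-normalised signal (log axis) of the 25 tested genes on each of the 3 brown arrays (brown points, left) and 3 white arrays (blue points, right), with short lines at the arithmetic means. Among these genes Itga6 has the largest log2 difference, with 269 to 339 on the brown arrays against 1805 to 2575 on the white arrays, and Itga1 and Itgae are the called genes that lie higher in brown.

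Among laminin chains, the alpha chains Lama2 and Lama4 and the gamma chain Lamc1 were about 3 to 4 times lower in brown than in white, and the beta chains differed less. Lama4, an alpha chain of blood vessel and adipocyte basement membranes (probe set 1424807_at), had 357, 382 and 304 on the brown arrays and 1027, 1029 and 1115 on the white arrays. All white arrays lay above all brown arrays, a difference of -1.61 (SE 0.099) with a limma adjusted p of 4.82e-07, or 3.05-fold towards white. Its other probe set, present on 2 of 3 brown arrays, had 91.5, 79.0 and 81.1 in brown and 174, 150 and 144 in white (-0.90). Lama2 (1426285_at), the alpha chain of the laminin around muscle fibres and peripheral nerves, had 125, 133 and 123 in brown, where it was reported absent on all arrays, and 398, 540 and 457 in white. It was thus at least 3.64-fold lower in brown (limma adjusted p = 1.25e-06).

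Lamc1 (1423885_at), the gamma chain found in most laminins, had 383, 411 and 349 on the brown arrays and 1296, 1351 and 1422 on the white arrays. The groups did not overlap, and the difference was -1.83 (SE 0.085, limma adjusted p = 6.64e-08). Its dimmer probe set, absent on all brown arrays, was at least 2.63-fold lower in brown. Lamc3, a gamma chain with a narrower distribution, had 89.3, 58.6 and 56.7 in brown and 69.3, 53.0 and 56.6 in white. These ranges overlap, and the difference was 0.17 with a 95% interval of -0.36 to 0.71.

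The beta chain Lamb2, which takes the place of Lamb1 in some basement membranes, had 74.1, 86.9 and 99.2 on the brown arrays and 142, 156 and 152 on the white arrays. It was lower in brown on every array (-0.80, limma adjusted p = 0.00183). Lamb1, the more widespread beta chain, was called by a narrow margin. Its brightest probe set had 269, 513 and 306 in brown and 506, 493 and 542 in white (-0.56, limma adjusted p = 0.04). Brown replicate 2 lay among the white arrays there, but was the lowest brown array in the other tested Lamb1 probe sets, with 99.3 and 120. Of these, one was called at -0.53 with an adjusted p of 0.0333 and one was not (-0.21, adjusted p = 0.446). Without brown replicate 2 the difference was -0.83 (adjusted p = 0.000122). Without any other single array it lay between -0.37 and -0.59 and was not called (largest adjusted p = 0.138).

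Lama1, Lama3, Lama5 and Lamb3 were not tested, since none of their probe sets was reported present on any array. Lama5, an alpha chain of vessel and epithelial basement membranes, still gave 240, 246 and 171 in brown and 197, 137 and 154 in white on its brightest probe set, with overlap and absent calls throughout, so it is not given as a level.

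**Figure D2:**
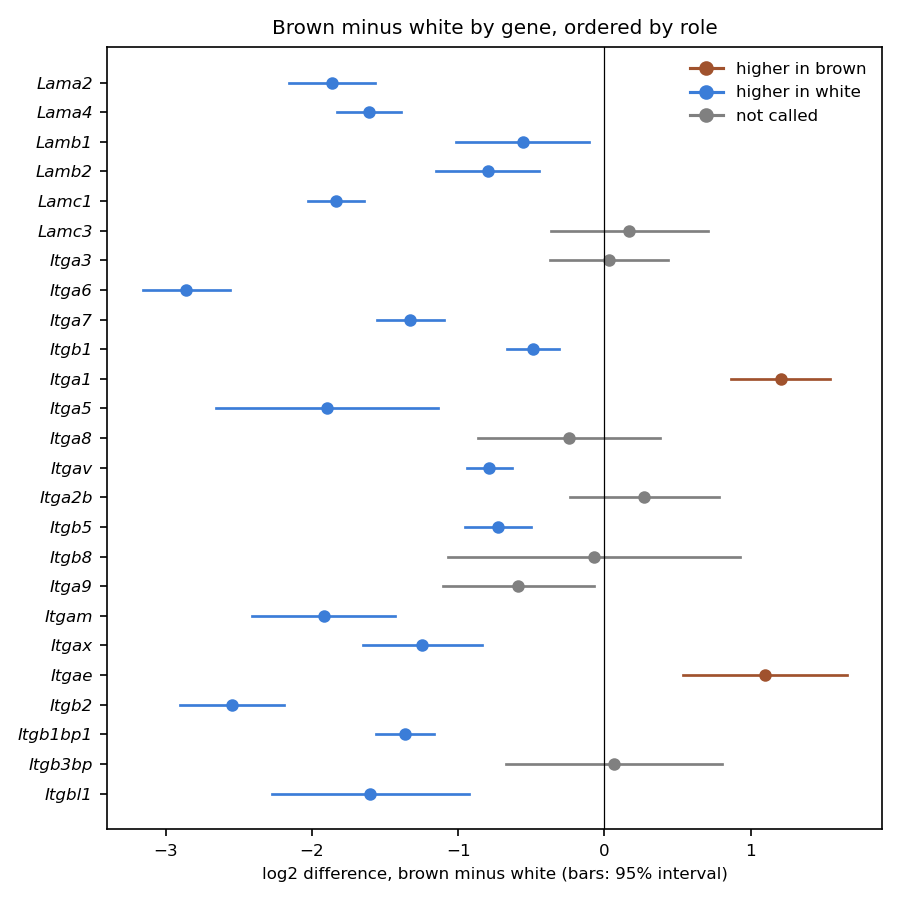
Log2 difference, brown minus white, for the 25 tested genes in order of role, with 95% intervals from limma as bars. Blue genes were higher in white, brown-coloured genes higher in brown and grey genes were not called. Values run from -2.86 for Itga6 to 1.21 for Itga1.

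Laminin-binding integrins split. Itga6, which pairs with Itgb1 or Itgb4 to bind laminin, was the member gene with the largest difference. Its probe set 1422445_at had 269, 287 and 339 on the brown arrays and 2575, 2154 and 1805 on the white arrays. The tissues were far apart on every array (-2.86, SE 0.133, limma adjusted p = 6.73e-08), or 7.26-fold towards white. The other Itga6 probe set had 104, 90.5 and 109 in brown and 521, 478 and 467 in white (-2.28). Itga7, a laminin receptor chain best known from muscle, had 161, 180 and 161 in brown and 425, 423 and 412 in white (-1.33, limma adjusted p = 2.44e-06).

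Itga3, the remaining laminin-binding alpha chain, had 141, 123 and 129 on the brown arrays and 165, 110 and 115 on the white arrays. The arrays overlap, the difference was 0.03 with a 95% interval of -0.37 to 0.43, and its sign changed with the scaling. Itgb4, the beta chain of epithelial hemidesmosomes, was reported absent on all arrays. Itgb1, the beta chain shared by most laminin and collagen receptors, had 528, 542 and 540 in brown and 748, 806 and 710 in white. The arrays did not overlap, and the difference was -0.49 with a 95% interval of -0.67 to -0.31 (limma adjusted p = 0.00049). A second Itgb1 probe set had 387, 288 and 348 in brown and 645, 665 and 652 in white (-0.95).

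Itga1, which joins Itgb1 in a receptor for collagens, above all the collagen of basement membranes, ran against this direction. It had 422, 451 and 345 on the brown arrays and 167, 211 and 152 on the white arrays. Every brown array lay above every white array, a difference of 1.21 (SE 0.151, limma adjusted p = 8.57e-05), or 2.31-fold towards brown. With the deposited scaling the difference was 0.71, still called. The other collagen-binding chains measured, Itga2 and Itga10, were present on too few arrays to be tested. Itga2 had 45.1, 44.2 and 33.2 in brown and 28.8, 14.0 and 23.5 in white.

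The RefSeq promoter table (GRCm38.p6, 250 bases before to 50 after the start) held 26 of the 39 member genes. Lama2 and Itga1 are shown because they moved in opposite directions. GAGGAA, the core of an Ets family element that PU.1 binds in myeloid cells, and GGGCGG, the GC box bound by Sp1, were searched on both strands. Matches on either strand are in capitals, and the start lies after base 250.
Lama2, chr10:27616893-27617192, minus strand: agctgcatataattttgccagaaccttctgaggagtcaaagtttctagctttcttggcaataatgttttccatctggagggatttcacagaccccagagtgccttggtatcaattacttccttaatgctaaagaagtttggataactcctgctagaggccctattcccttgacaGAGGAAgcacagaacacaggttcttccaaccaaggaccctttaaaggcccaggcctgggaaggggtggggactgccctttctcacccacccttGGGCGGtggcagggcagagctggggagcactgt
Itga1, chr13:115101915-115102214, minus strand: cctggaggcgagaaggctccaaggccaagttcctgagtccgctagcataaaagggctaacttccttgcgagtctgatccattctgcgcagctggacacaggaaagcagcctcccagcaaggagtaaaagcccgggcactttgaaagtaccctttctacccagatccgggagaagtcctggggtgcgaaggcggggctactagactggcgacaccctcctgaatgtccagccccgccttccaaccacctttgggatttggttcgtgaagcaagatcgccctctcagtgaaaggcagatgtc
The Lama2 window held 1 match to each motif and the Itga1 window none. GGGCGG occurs in 35.7% of all 32851 promoters and GAGGAA in 28.3%, so either match is common.

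Of 8 integrin chains that bind ligands with an Arg-Gly-Asp sequence, 6 were tested, of which 0 were higher in brown by limma, 3 (Itgav, Itgb5 and Itga5) were higher in white and 3 were not called (median -0.49). Over all genes tested, 27.7% were higher in brown, 32.2% were higher in white and 60.0% were called. Itgav, which pairs with several beta chains, among them those that bind vitronectin, had 709, 708 and 772 on the brown arrays and 1235, 1256 and 1282 on the white arrays. The arrays of each tissue were tightly grouped and did not overlap (-0.79, SE 0.069, limma adjusted p = 6.23e-06). Its partner in the vitronectin receptor, Itgb5, had 772, 930 and 734 in brown and 1353, 1232 and 1434 in white (-0.73, limma adjusted p = 0.000159). All 4 Itgb5 probe sets were called in this direction, at -0.67 to -1.06. Itga5, the fibronectin receptor chain, had 48.8, 31.1 and 18.2 in brown, where it was absent on all arrays, and 93.3, 120 and 127 in white, at least 3.72-fold lower in brown (limma adjusted p = 0.000928). The 3 other Itga5 probe sets were not tested, and the signals of one of them ran towards brown (59.9, 58.2 and 71.6 in brown, 56.0, 26.4 and 33.4 in white).

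Itga8, Itga9, Itgb8 and the platelet chain Itga2b were not called. Itga8, a receptor chain for nephronectin, had 38.3, 35.9 and 42.6 in brown and 40.4, 63.6 and 37.8 in white. Itga9, which binds tenascin-C among other ligands, had 53.0, 34.6 and 46.8 in brown and 63.7, 65.6 and 69.6 in white. Its arrays did not overlap, but the difference of -0.59 had a limma adjusted p of 0.0542. Itga2b had 73.0, 83.6 and 59.2 in brown and 49.0, 58.1 and 71.8 in white, with overlap. Itgb8, which works with Itgav in activating latent TGF-beta, had 16.1, 21.4 and 38.8 in brown and 22, 18.9 and 37.2 in white, with a wide interval of -1.07 to 0.93. Itgb3 and Itgb6 were not tested.

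Of 6 leukocyte integrin chains on the array, 4 were tested, and brown was higher for 1 (Itgae) and white for 3, at a median of -1.58. The shares over all genes tested were 27.7% higher in brown and 32.2% higher in white. Itgb2, the beta chain of all leukocyte-restricted integrins of the CD11 group (1450678_at), had 102, 83.1 and 66.5 on the brown arrays, 1 of them reported present, and 478, 491 and 482 on the white arrays. The white values were nearly equal and far above the brown ones (-2.55, SE 0.158, limma adjusted p = 5.14e-07), or 5.85-fold towards white. Itgam, which with Itgb2 forms the complement receptor of macrophages and neutrophils, had 22.8, 23.6 and 26.6 in brown and 95.2, 92.5 and 87.8 in white. It was absent on all brown arrays and at least 3.78-fold lower there (limma adjusted p = 4.3e-05). Itgax, the partner chain of dendritic cells and some macrophages, had 75.7, 55.9 and 70.8 in brown, where it was absent on all arrays, and 137, 161 and 181 in white. It was at least 2.37-fold lower in brown (limma adjusted p = 0.000242).

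Itgae, which pairs with Itgb7 and binds E-cadherin on lymphocytes in epithelia, ran the other way. It had 65.3, 87.8 and 56.2 on the brown arrays, all reported present, and 34.2, 32.9 and 29.2 on the white arrays, none reported present. All brown arrays were higher (1.10, SE 0.250, limma adjusted p = 0.00415). Scaled to the spike-in controls it was no longer called (0.63, limma adjusted p = 0.0763). Its second probe set was absent throughout but had 120, 85.3 and 88.2 in brown and 52.4, 55.7 and 55.3 in white. Itgb7 and the E-cadherin gene Cdh1 were absent on all 6 arrays by their brightest probe set. Itgal and Itga4 were not tested either. With 64 units added to each signal, which damps dim genes, the differences were -0.82 for Itgam, -0.76 for Itgax, -0.88 for Itga5 and 0.47 for Itgae, all still called.

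Markers of macrophages were also lower in brown, and lymphocyte markers were mostly undetected. All 10 macrophage markers were higher in white (median -2.75), where 27.7% of all genes tested were higher in brown and 32.2% in white. Their summed signals were 2945 to 3455 on the brown arrays and 19080 to 19911 on the white arrays, and no marker was absent throughout a tissue. Such sums, here and below, add signals of different probe sets, absent ones included. The brightest probe sets weigh most in them, and they do not measure amounts of cells. Csf1r, the receptor that maintains macrophages, had 806, 1227 and 781 in brown and 5050, 4791 and 5021 in white. Of 7 lymphocyte markers on the array, 1 was tested and not called. Their summed signals were 120 to 203 in brown and 150 to 192 in white, with Cd3e, Cd3g, Cd3d, Cd79b and Cd4 absent in both tissues. The part of these cells in the leukocyte integrin differences was not tested.

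Itgam and Itgax are neighbours on chromosome 7 with 0 protein-coding genes between them, and both were lower in brown, so both promoters are shown with the same motifs in capitals.
Itgam, chr7:128062390-128062689, plus strand: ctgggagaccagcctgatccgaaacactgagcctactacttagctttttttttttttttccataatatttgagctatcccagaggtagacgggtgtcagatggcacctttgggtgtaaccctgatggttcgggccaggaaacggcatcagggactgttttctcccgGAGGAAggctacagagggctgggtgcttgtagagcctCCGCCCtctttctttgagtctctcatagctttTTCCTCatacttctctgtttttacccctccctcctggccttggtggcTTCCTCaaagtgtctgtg
Itgax, chr7:128129300-128129599, plus strand: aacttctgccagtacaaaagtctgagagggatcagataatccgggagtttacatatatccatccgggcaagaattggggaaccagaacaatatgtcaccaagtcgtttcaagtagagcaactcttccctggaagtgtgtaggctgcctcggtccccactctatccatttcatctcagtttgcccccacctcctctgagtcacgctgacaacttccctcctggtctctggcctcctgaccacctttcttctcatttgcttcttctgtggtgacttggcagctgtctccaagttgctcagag
The Itgam window held 3 matches to GAGGAA, 1 as written and 2 on the opposite strand, and 1 match to GGGCGG. The Itgax window held no match to either motif. Of the 29 promoters listed for 26 member genes, 14 held GAGGAA and 13 held GGGCGG. These are 48.3% and 44.8%, against 28.3% and 35.7% of all promoters, and the difference was not tested.

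Of the genes matched by name that are not integrin chains, Itgb1bp1, whose protein binds the Itgb1 tail, had 289, 334 and 308 in brown and 769, 784 and 841 in white (-1.36, limma adjusted p = 8.11e-07). Itgbl1, a secreted protein resembling part of an integrin beta chain, had 45.5, 20.0 and 35.1 in brown and 91.8, 101 and 96.1 in white (-1.60, limma adjusted p = 0.00128). Itgb3bp, a kinetochore protein, had overlapping arrays with 31.1, 46.7 and 47.4 in brown and 30.6, 33.2 and 58.8 in white (0.07, adjusted p = 0.877).

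The partners of laminins and integrins outside the families also differed. Beside each list below stand the shares over all genes tested, 27.7% higher in brown and 32.2% higher in white. In these lists too, genes detected in a single tissue pass the filter through that tissue, so their direction is not independent of it. Of 13 other basement membrane genes tested, 1 was higher in brown, 11 were higher in white and 1 was not called, with a median of -1.57. Of the 18 on the array, 8 were absent on all brown arrays and 3 on all white arrays. Nid1, the nidogen that links laminin to type IV collagen by binding the laminin gamma chain, had 411, 379 and 415 in brown and 3544, 3779 and 3437 in white (-3.16, limma adjusted p = 9.73e-10). Col4a5, a type IV collagen chain, had a difference of -2.72. Col18a1, another vessel basement membrane collagen, was absent on the brown arrays and at least 5.89-fold lower there. Agrn, the proteoglycan agrin that binds laminin, was higher in brown (203 ± 24.7 against 146 ± 3.64 in white, SD, n = 3; 0.48, limma adjusted p = 0.0112), with its sign turned to -0.06 under the deposited and spike-in scalings.

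The list of laminin receptors that are not integrins also held partner proteins such as Sgcb and Utrn. Of its 12 tested genes, 2 were higher in brown, 7 were higher in white and 3 were not called (median -0.82). The 2 higher in brown were the receptor gene Dag1 and the partner gene Sgcb. Dag1, which encodes dystroglycan, the laminin receptor of the dystrophin complex, had 2074, 1969 and 2052 on the brown arrays and 1190, 1222 and 1203 on the white arrays. It was higher in brown on every array (0.75, limma adjusted p = 2.11e-06). Its sarcoglycan partner Sgcb had 279 ± 22.1 in brown and 193 ± 23.5 in white (SD, n = 3; 0.53, limma adjusted p = 0.00579), or 0.02 with the deposited scaling. Utrn, the utrophin that ties dystroglycan to actin, was lower in brown (-1.34), as was the laminin-binding glycoprotein Bcam (-1.35). The syndecan Sdc1 was absent on all brown arrays and at least 3.34-fold lower there.

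Inside the cell, of 24 tested genes for integrin activators and adhesion adaptors, 0 were higher in brown by limma, 20 were higher in white and 4 were not called (median -0.89). Fermt3, the kindlin of blood cells, had 30.9, 42.1 and 52.2 in brown and 199, 225 and 233 in white (-2.42, limma adjusted p = 5.74e-06). Flna, an actin crosslinker that binds integrin beta tails, had 171 ± 23.0 in brown and 876 ± 54.1 in white (SD, n = 3; -2.37). Tns3, a tensin of adhesion sites, was absent on all brown arrays and at least 4.97-fold lower there. Bcar1 (-0.12) and Ptk2b (-0.16), both signalling proteins of adhesions, were not called. Among 12 other integrin ligands tested, brown was higher for 2 and white for 10, at a median of -1.09. Of the 17 on the array, 10 were absent on all brown arrays and 3 on all white arrays. The tested ones absent in brown passed the filter through white, so their direction is not independent of it. Fn1, fibronectin, the Itga5 ligand, absent on 2 brown arrays, had 400, 390 and 382 in brown and 4629, 4895 and 4573 in white (-3.59, limma adjusted p = 3.86e-10). Vtn, vitronectin, the ligand of the Itgav and Itgb5 pair, had a difference of -2.10. Postn, periostin (0.41), and Ccn1 (0.42) were higher in brown, and Ccn1 had -0.11 with the deposited and spike-in scalings.

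**Figure D3:**
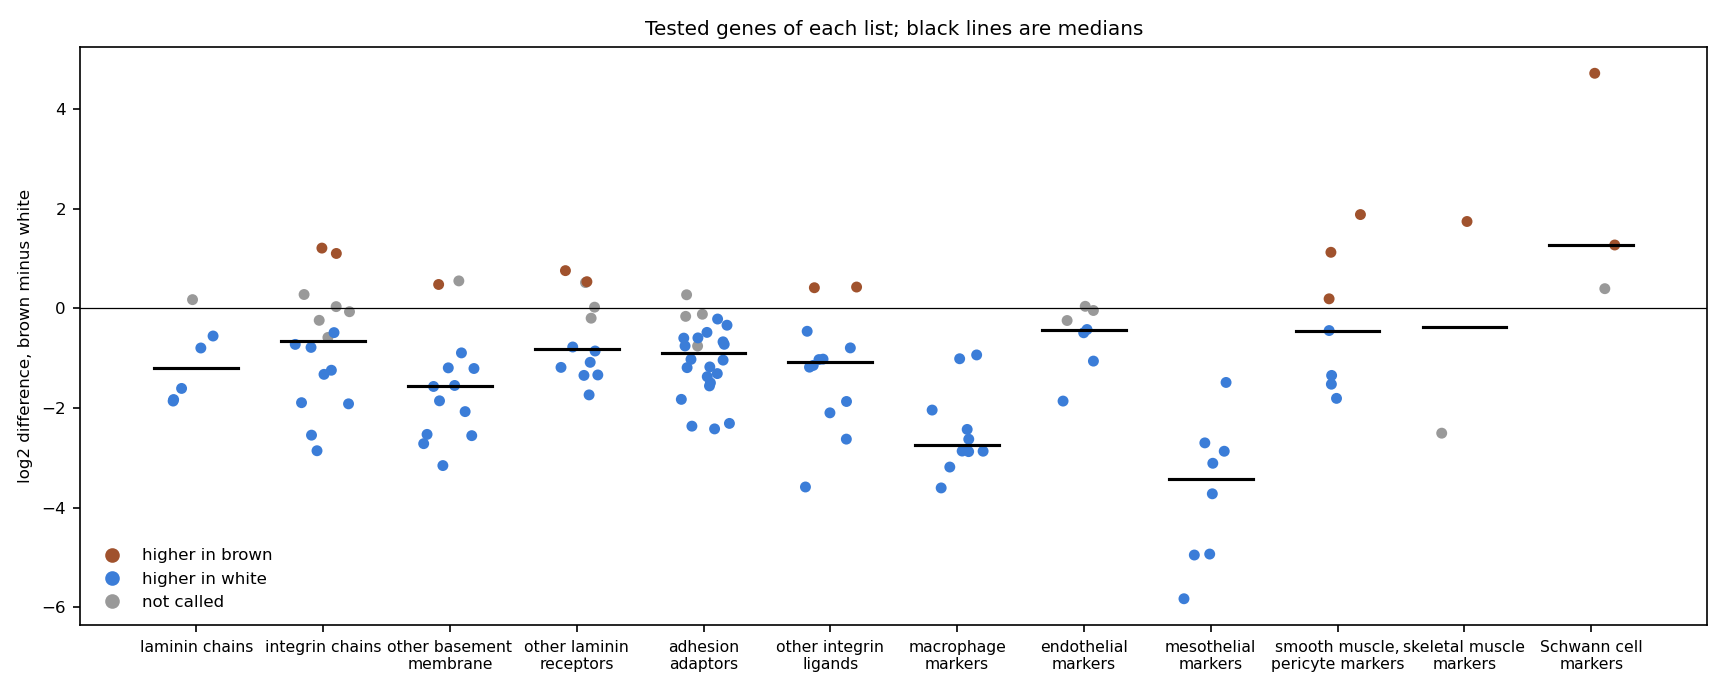
Log2 difference, brown minus white, of each tested gene in the laminin and integrin families, in lists of their partners and in markers of 6 other cell types, with black lines at the medians. Medians were -0.82 to -1.57 in the partner lists, -2.75 and -3.42 in the macrophage and mesothelial markers, and 1.27 in the Schwann cell markers.

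Vessel and stromal markers differed unevenly. Of 7 endothelial markers tested, 0 were higher in brown by limma, 4 were higher in white and 3 were not called (median -0.43). Summed signals over the 8 on the array were 2206 to 2372 in brown and 2962 to 3107 in white. Cdh5, the endothelial cadherin, had a difference of -1.06, while the vascular growth factor receptor Kdr had 843 ± 93.8 in brown and 820 ± 70.6 in white (SD, n = 3; 0.04) and was not called. Of 8 fibroblast markers, 7 were higher in white (median -1.75), with summed signals of 9776 to 10418 in brown and 34574 to 35341 in white. All 8 mesothelial markers were higher in white (median -3.42), with sums of 263 to 311 in brown and 2835 to 3215 in white, and 6 of them, among them Msln and Upk3b, were absent on all brown arrays. Mesothelium covers the epididymal pad.

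Markers of nerve and muscle cells lay higher in brown or went both ways. Of 3 Schwann cell markers tested, 2 were higher in brown and 1 was not called (median 1.27), with summed signals over 4 markers of 913 to 1010 in brown and 235 to 255 in white. S100b, a calcium-binding protein of Schwann cells that other cells also make, had 614, 551 and 537 in brown and 20.5, 16.4 and 29.9 in white (4.71). It made up most of the brown sum. The myelin protein gene Mbp had a difference of 1.27. Of 8 skeletal muscle markers 2 were tested, with Myl1, a myosin light chain, higher in brown (1.74) and Acta1 not called (-2.51, limma adjusted p = 0.122). Summed signals over all 8 were 1188 to 1542 in brown and 569 to 707 in white, and 5 of the 8 were absent on all brown arrays and 6 on all white arrays. Lama2 and Itga7, introduced above as chains of nerve and muscle, were lower in brown, and which cells of either tissue made them was not tested. Of 7 smooth muscle and pericyte markers tested, brown was higher for 3 and white for 4, at a median of -0.45. Sums over the 8 on the array were 4872 to 5071 in brown and 5999 to 6328 in white. The part of vessel, stromal, mesothelial, nerve and muscle cells in the laminin and integrin differences was not tested.

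The direction of the 18 called member genes did not depend on how the arrays were scaled. All 18 kept their direction under 4 scalings (quantile, array median, deposited and spike-in), and 17 were called under each, Itgae being the exception. Scaling did move the general level: the median over all 19819 was -0.06 when quantile-normalised and -0.53 as deposited or scaled to spike-in controls. The median over the 34 members' probe sets was -0.85 when quantile-normalised and -1.36 as deposited. Over all 19819, 4885 were called for brown and 5924 for white when quantile-normalised, 2535 and 10785 as deposited, and 2295 and 10112 with spike-in scaling. Among the 34, the counts were 2 and 24 when quantile-normalised, 2 and 27 as deposited, and 1 and 26 with spike-in scaling.

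**Figure D4:**
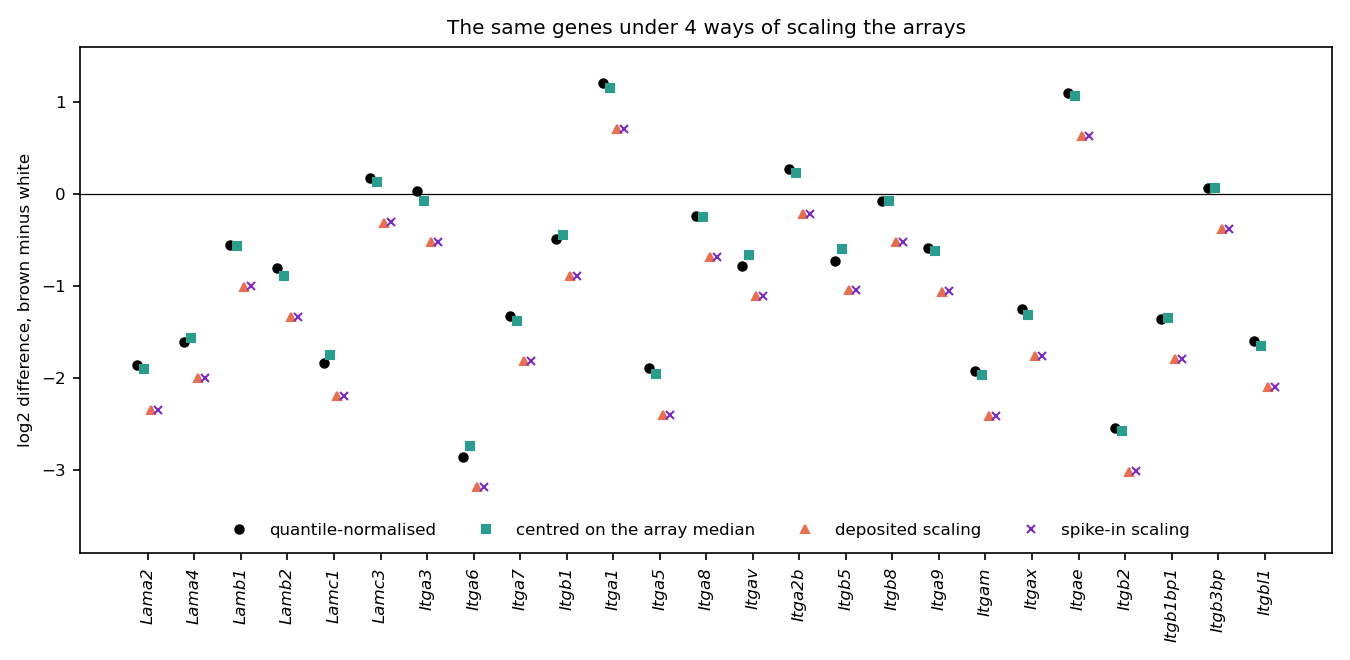
Log2 difference, brown minus white, of the 25 tested genes under 4 scalings of the arrays. The deposited and spike-in scalings shift every gene towards white, and of the genes plotted Itga2b, Itga3, Itgb3bp and Lamc3, none of them called after quantile normalisation, change sign.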

How the data were processed

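RNA of 3 brown and 3 white adipose samples was labelled with biotin and hybridised to 1-colour arrays, per the labels. Per the file headers, the authors deposited for each array a signal intensity per probe set on a linear scale, a detection call and its detection p-value. No source used here gives the software or scaling target. The arrays' number limits the precision.

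From 45101 probe sets, 64 controls were left out. Of the remaining 45037, the platform annotation gave 1 symbol to 34945, several to 932 and none to 9160. The 1 signal of 0 was set to 0.1. Log2 signals were quantile-normalised, and 19819 probe sets present on at least 3 of 6 arrays were fitted with limma 3.58.1 in R 4.3.3 (lmFit, eBayes with a trend, Benjamini-Hochberg over all, threshold 0.05, two-sided). SEs and 95% intervals come from that fit, and folds are ratios of geometric means. "At least" sets the brighter tissue against, per dim array, the higher of the lowest signal reported present and the probe set's own. The result is a point value that does not allow for the spread between arrays. The fit was tested on simulated data with 50 of 19819 probe sets changed per effect size, far fewer than were called here. It recovered 80% of differences of -2, 52% of -1, 64% of 1 and 98% of 2. Every member gene may be named. Of other lists, up to 3 called genes per direction with the largest difference, up to 2 uncalled genes with the highest signal, and markers beside a result were named. Cdh1, Vcam1 and Icam1 were named after their values were seen. Members, lists and tests were chosen with earlier results of these data known. Deviations of same-numbered arrays from their tissue means correlated at 0.0172, -0.0138 and -0.046. With 3 arrays per tissue this cannot show whether equal replicate numbers mark the same mouse. Alternatives covered scaling, filter, added signal, variance trend, replicate block, probe sets, each array left out and the authors' table.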

Additional observations from a re-analysis of the deposited data

How the results depend on the processing

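With only probe sets present on all 6 arrays, 21 member probe sets were tested, and 1 was higher in brown and 15 in white, 16 together, against 31.2%, 30.0% and 61.2% of all 13144 such probe sets. With spike-in scaling 1 was higher in brown. The median over the member probe sets tested was -1.36 with the deposited scaling, -0.92 with each array centred on its median, -1.36 with spike-in scaling, -0.70 with 64 units added, -0.56 with no detection filter and -0.79 with probe sets present on all 6 arrays. Leaving out single arrays gave 2 members higher in brown throughout, 21 to 24 higher in white, 23 to 26 in either direction, against 22.1% to 23.9%, 26.1% to 29.5% and 48.2% to 53.5% of all probe sets, and medians of -0.87 to -0.83. With the replicate number as a block, 2 were higher in brown and 24 in white, as without it, against 23.7% and 29.1% of all probe sets. The authors' table, counted without direction, gave 26 of 34 differing member probe sets, against 67.0% of all tested.

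Of 414 gene values under alternatives, 378 kept direction and side of the threshold, 9 lost their call, 7 gained one and 20 changed sign. Those that lost it were Lamb1 and Itgae. Itga9 was called in 7 alternatives, for example at -0.62 with arrays centred on the median. Sign changes, all in genes not called in the report, were as follows. With the deposited scaling Itga2b had -0.22, Lamc3 -0.31, Itga3 -0.52 (adjusted p = 0.0253) and Itgb3bp -0.38. With spike-in scaling Itga2b had -0.22, Lamc3 -0.31, Itga3 -0.52 and Itgb3bp -0.38. Itga3 had -0.075 with median centring. With single arrays left out, Lamc3 ranged over -0.040 to 0.29, Itgb8 over -0.42 to 0.22, Itga3 over -0.074 to 0.22 and Itgb3bp over -0.11 to 0.36. The cause was not tested. Dim probe sets limit the comparison, since 14 member genes had too few present calls to be tested.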

Other observations

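Some untested members gave unequal signals under absent calls, and no level can be drawn from them. The brightest probe set of Itga4, the chain that binds Vcam1, had 38.3, 16 and 30.4 on the brown arrays and 142, 155 and 135 on the white arrays, all reported absent. Its ligand gene Vcam1 was present in white, absent on all brown arrays and at least 2.04-fold lower in brown (limma adjusted p = 0.000563). Itgal, the partner of Itgb2 on lymphocytes, had 23.6, 40.9 and 40.3 in brown and 61.5, 53.8 and 80.7 in white, also absent. Its ligand gene Icam1 was absent on all brown arrays and at least 2.03-fold lower there (limma adjusted p = 0.00145).

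Pf4, known as a platelet chemokine, had 417, 410 and 427 on the brown arrays and 2095, 2086 and 1966 on the white arrays (-2.29, limma adjusted p = 3.81e-09). The platelet receptor gene Gp1bb ran the other way, with 86.5 ± 2.63 in brown and 45.5 ± 10.9 in white (SD, n = 3; 0.95, limma adjusted p = 0.00493), and Gp9 was absent on all arrays. Of the 7 smooth muscle and pericyte markers tested, 3 were higher in brown, among them Cspg4 (1.12) and Des (1.88), and 4 in white, among them Acta2 (-1.53) and Tagln (-1.81).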
